A study of Mus musculus with 92 samples.

Results

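The 10 libraries described here are livers of female CD-1 mice dosed for 9 months with 5 mg/kg HFPO-DA or with 0 mg/kg, out of 92 libraries in the series. They were chosen by the labels for sex, dose and duration, and each of the 2 groups held 5 libraries, each with a number of its own in the labels. P-values rest on the spread between libraries within groups, estimated over all 24 female libraries at 9 months. Where sexes or durations are compared, that spread was estimated over all 92 libraries. CD-1 is an outbred stock and the labels give the genotype as wild type in every group. The doses were given once a day by oral gavage. Males, a duration of 18 months, and doses of 0.05, 0.1 and 0.5 mg/kg make up the other groups, and for the animals' age at the first dose the labels hold no entry. The tissue was scraped from thin sections of livers that had been fixed in formalin and embedded in paraffin, so each library mixes all cell types of a section, and fewer cells of a type cannot be told apart from less RNA per cell. The assay was TempO-Seq, in which a pair of oligonucleotides that lie side by side on a chosen transcript is ligated, amplified and counted. The values are therefore counts of probes, summed over the probes of a gene and given as CPM, counts scaled to a common library size.

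HFPO-DA is a short fluorinated ether carboxylic acid used in making fluoropolymers. Its shape resembles that of a fatty acid, and perfluoroalkyl acids of this kind are known to activate PPARα, the nuclear receptor that in rodent liver switches on genes for taking up fatty acids and for burning them in peroxisomes, mitochondria and the endoplasmic reticulum. PPARα binds DNA together with RXR at direct repeats of a short half-site. The rodent liver is also strongly sexually dimorphic, with many drug-metabolising enzymes set by the sex-specific rhythm of growth hormone release.

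The 10 libraries held 4723672 to 6635184 counts. Hepatocyte markers were high in all of them, with summed levels of 17700 to 36300 CPM in controls and 23900 to 38300 CPM at 5 mg/kg, and the Y-linked genes measured did not exceed a sum of 0.627 CPM. Control replicates 1 and 3 stood apart from the other 3 controls. Their lymphocyte and plasma cell markers summed to 1010 and 913 CPM, against 48.9 to 78 CPM in the other controls and 46.7 to 107 CPM at 5 mg/kg. Red blood cell markers summed to 1370 and 863 CPM in the same 2 controls, against 67.4 to 155 CPM in the others, and cell cycle genes to 727 and 712 CPM, against 162 to 237 CPM. At 5 mg/kg, replicate 4 had the highest macrophage sum, 2250 CPM against 718 to 822 CPM in the other 4. Where a named gene lost its call without control replicates 1 and 3, this is stated below, for some genes with the adjusted p of that fit. The part that the cells behind these markers have in any result was not tested.

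**Figure D1:**
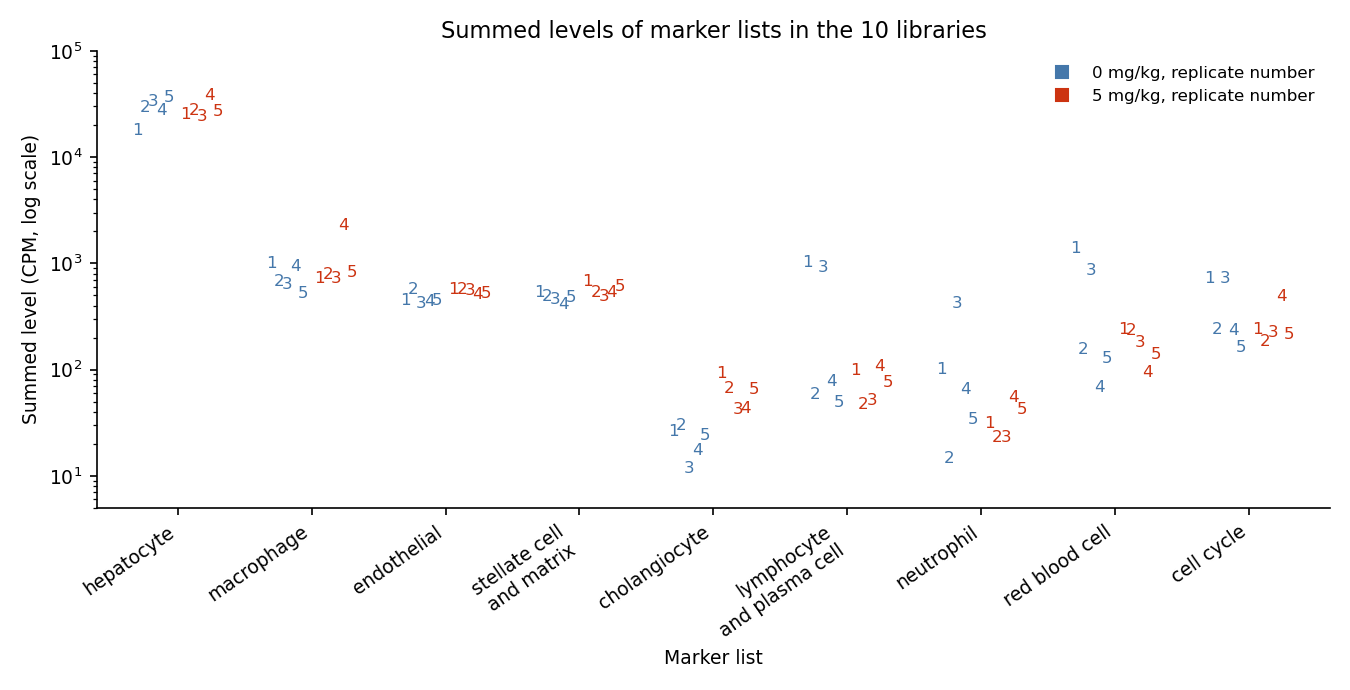
Summed level of each marker list (CPM, log scale) in the 10 libraries; each digit is the replicate number of a library, in blue for 0 mg/kg and red for 5 mg/kg. Control replicates 1 and 3 lie above the other controls for lymphocyte, red blood cell and cell cycle genes, and replicate 4 at 5 mg/kg lies at 2250 CPM for macrophage markers.

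The comparison of 5 with 0 mg/kg asks which liver genes had changed after 9 months of the highest dose. Of 11642 genes tested, 160 rose (1.37% of those tested) and 82 fell (0.704%) at an adjusted p under 0.05. Adjusted p-values throughout are from edgeR's quasi-likelihood F test with Benjamini-Hochberg adjustment over all genes of a comparison, and log2 changes are those of the fit with their SE. The median log2 change was 1.24 among the rises and -1.49 among the falls. At least 4-fold changes were seen in 40 of the rises and 26 of the falls. Every library at 5 mg/kg lay above every control for 128 of the rises and below every control for 50 of the falls. Over all genes tested such groups without overlap made up 2.2% (above) and 1.46% (below). The calls come from the same libraries, so a high share without overlap among called genes follows largely from the calling and adds no support. Without control replicates 1 and 3, 74 genes rose and 36 fell of 11803 tested, and 98 of the 242 calls remained. The median of all genes moved from -0.05 to 0.02 on the log2 scale between these fits. Genes of the 31 pathway lists, 587 in number, made up 60 of the rises and 22 of the falls. The lists were chosen with earlier results of these data known, so their counts and shares are descriptions and not independent support.

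**Figure D2:**
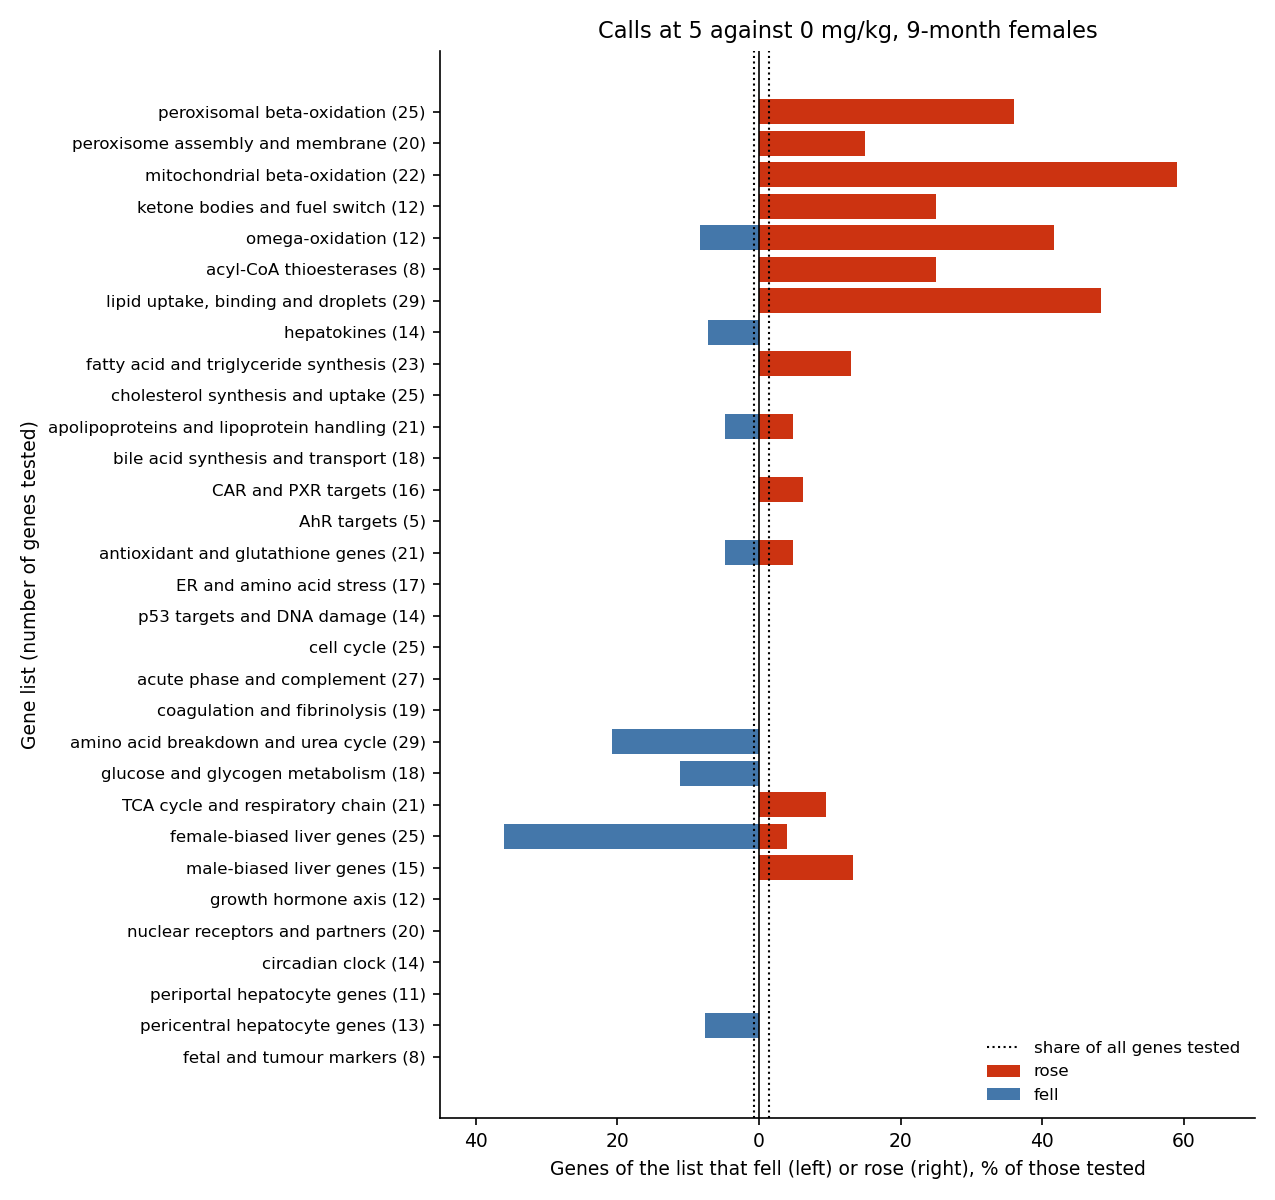
Share of the tested genes of each pathway list that rose (red, to the right) or fell (blue, to the left) at 5 against 0 mg/kg, with the number of genes tested in brackets. Dotted lines mark the shares over all genes tested, 1.37% and 0.704%; the oxidation and lipid handling lists extend to the right, and the lists of female-biased and amino acid genes to the left.

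Peroxisomal beta-oxidation shortens very long and branched fatty acids. Of 25 tested genes of this list, 9 rose and none fell (median log2 change 0.75; at an unadjusted p under 0.05, 1 was lower, and DESeq2 called 0 falls). Ehhadh, the bifunctional enzyme that hydrates and dehydrogenates, stood at 399, 500, 437, 676 and 559 CPM in controls and at 12400, 6750, 4880, 7690 and 6350 CPM at 5 mg/kg. The groups did not overlap, and the rise was 14.8-fold (95% interval 11.1 to 19.8; log2 change 3.89 ± 0.21 SE, adjusted p = 3.48e-13). The thiolases Acaa1b and Acaa1a of the last step rose, while Scp2 of the same list was not called (adjusted p = 0.0521). Acaa1b went from 9.40 ± 2.19 to 69.2 ± 17.5 CPM (SD, n = 5 each), 7.36-fold (adjusted p = 1.2e-07), and Acaa1a from 630 ± 107 to 2300 ± 764 CPM (adjusted p = 0.000238). The carnitine acyltransferases that carry the shortened chains out, Crat and Crot, rose from 13.1 to 47.9 CPM and from 81.3 to 205 CPM (adjusted p = 0.00142 and 0.000532). Abcd3, an importer of acyl-CoA, rose from 60.3 ± 20.2 to 149 ± 19.4 CPM, and Slc27a2, which activates very long chains, from 654 ± 288 to 1920 ± 184 CPM. Of the 9, 7 remained called without control replicates 1 and 3. Hsd17b4, the D-bifunctional enzyme (556 to 933 CPM), and Slc27a2 were the exceptions (adjusted p = 0.219 and 0.0889), and Hsd17b4 was also lost in 4 of the 10 fits that left out 1 library.

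Peroxisomes grow and divide with the help of peroxin proteins. Of 20 tested genes for assembly and membrane proteins, 3 rose (median 0.27; 0 fell, also at an unadjusted p under 0.05 and with DESeq2). Pex11a, which drives peroxisome division, rose from 28.1, 31.4, 23.5, 38.2 and 27.3 CPM to 157, 127, 93.1, 133 and 80 CPM, a 3.98-fold change (95% interval 2.70 to 5.87; adjusted p = 0.000108). Its lowest treated library lay above 2 times the highest control. Lonp2, the peroxisomal protease, rose from 148 to 231 CPM. It was lost in 4 of the 10 fits that left out 1 library and was not called without control replicates 1 and 3 (adjusted p = 0.252).

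Mitochondrial beta-oxidation had the highest share of calls of any list. All 22 of its genes had a log2 change above 0, and 13 rose (median 0.78; 0 were lower at an unadjusted p under 0.05, and DESeq2 called 0 falls). Acadm, the medium-chain acyl-CoA dehydrogenase, stood at 660, 990, 661, 892 and 886 CPM in controls and at 2200, 1730, 1860, 1540 and 1620 CPM at 5 mg/kg. Its groups did not overlap and it rose 2.19-fold (95% interval 1.79 to 2.68; adjusted p = 2.76e-05). The long-chain and very-long-chain dehydrogenases Acadl and Acadvl went from 101 to 225 CPM and from 195 to 332 CPM. The isomerase Eci1 (116 ± 20.6 to 344 ± 81.2 CPM) and the reductase Decr1 (375 ± 95.3 to 902 ± 119 CPM) handle unsaturated chains, and both rose by more than 1 on the log2 scale. The trifunctional protein genes Hadha and Hadhb changed by 0.84 on the log2 scale each.

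Within this list Cpt1b stood apart by size. It encodes the muscle form of the carnitine palmitoyltransferase that admits fatty acids to mitochondria, and rose 11.9-fold (95% interval 5.95 to 23.9; adjusted p = 0.000153), from 4.24, 10.0, 5.20, 4.67 and 4.13 CPM to 167, 56.8, 29.2, 56.3 and 27.5 CPM. Treated replicate 1 was far above the rest, yet the lowest treated value was above the highest control. Cpt2, the partner on the inner membrane, went from 48.4 to 83.8 CPM, and the carnitine carrier Slc25a20 from 24.1 to 47.9 CPM. Of the 13, 7 remained called without control replicates 1 and 3: Acadm, Acadl, Hadhb, Eci1, Decr1, Cpt1b and Acsl1. Etfdh and Etfa, which pass the electrons on, were lost in 8 and 5 of the 10 fits that left out 1 library, and Slc25a20 in 2 (without control replicate 1 or 5 mg/kg replicate 1). In the citric acid cycle and respiratory chain 2 of 21 tested genes rose. Suclg1, a subunit of succinyl-CoA ligase, went from 114 to 172 CPM and was not called without control replicates 1 and 3 (adjusted p = 0.391).

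Of 12 tested genes for ketone bodies and fuel choice 3 rose. Pdk4, the kinase that shuts off pyruvate dehydrogenase, rose from 0.142 to 2.11 CPM in controls to 6.50 to 22.7 CPM at 5 mg/kg (log2 change 3.84 ± 0.85 SE, adjusted p = 0.0103), without overlap. Leaving out 5 mg/kg replicate 5, which had the highest value, took its adjusted p to 0.0536. Ucp3, a mitochondrial carrier best known from muscle, had 0 counts in all 5 controls and 17 to 75 counts (9.13, 9.64, 7.86, 3.38 and 3.72 CPM) in the treated libraries. Against a floor of 3 counts per library it was at least 14.9-fold higher, and it was the largest rise of all by the fit (adjusted p = 0.00118).

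The endoplasmic reticulum carries out omega-oxidation, in which Cyp4a enzymes hydroxylate the far end of a fatty acid. Of 12 tested genes 5 rose and 1 fell. Cyp4a10 went from 21.5, 67.9, 49.5, 151 and 158 CPM to 2070, 897, 1190, 2080 and 1120 CPM, 16.5-fold (95% interval 8.66 to 31.3; adjusted p = 3e-05). The lowest treated library was more than 5 times the highest control. Cyp4a14 (20.1 ± 16.7 to 397 ± 186 CPM), Cyp4a31 and Cyp4a32 also rose, but Cyp4a10, Cyp4a31 and Cyp4a32 are near-identical and their probes may take each other's transcripts, so their separate values are uncertain. Cyp4a32 was lost in 8 of the 10 fits that left out 1 library and without control replicates 1 and 3 (adjusted p = 0.191). Aldh3a2, the fatty aldehyde dehydrogenase of the same route, went from 1120 ± 451 to 2930 ± 647 CPM (adjusted p = 0.00553; 0.0779 without control replicates 1 and 3). Cyp4f14, which inactivates leukotrienes, fell from 45 ± 16.4 to 12 ± 8.75 CPM (adjusted p = 0.0257; 0.0601 without those controls), and was lost in 4 of the 10 fits that left out 1 library.

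Among 8 tested acyl-CoA thioesterases, which release free fatty acids from CoA, 2 rose (0 were lower at an unadjusted p under 0.05, and DESeq2 called 0 falls). Acot1, the cytosolic form, stood at 15 to 83.5 CPM in controls and 525 to 1450 CPM at 5 mg/kg, a 16.4-fold rise (95% interval 8.54 to 31.5; adjusted p = 3.69e-05). Acot2, its mitochondrial copy, went from 5.32 ± 4.03 to 53.2 ± 36.7 CPM (adjusted p = 5.69e-05), and the near-identical sequences make the split between them uncertain. Acot3, a peroxisomal member, was at 175 ± 101 CPM in controls and 379 ± 94.4 CPM at 5 mg/kg and did not pass the test (adjusted p = 0.321).

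**Figure D3:**
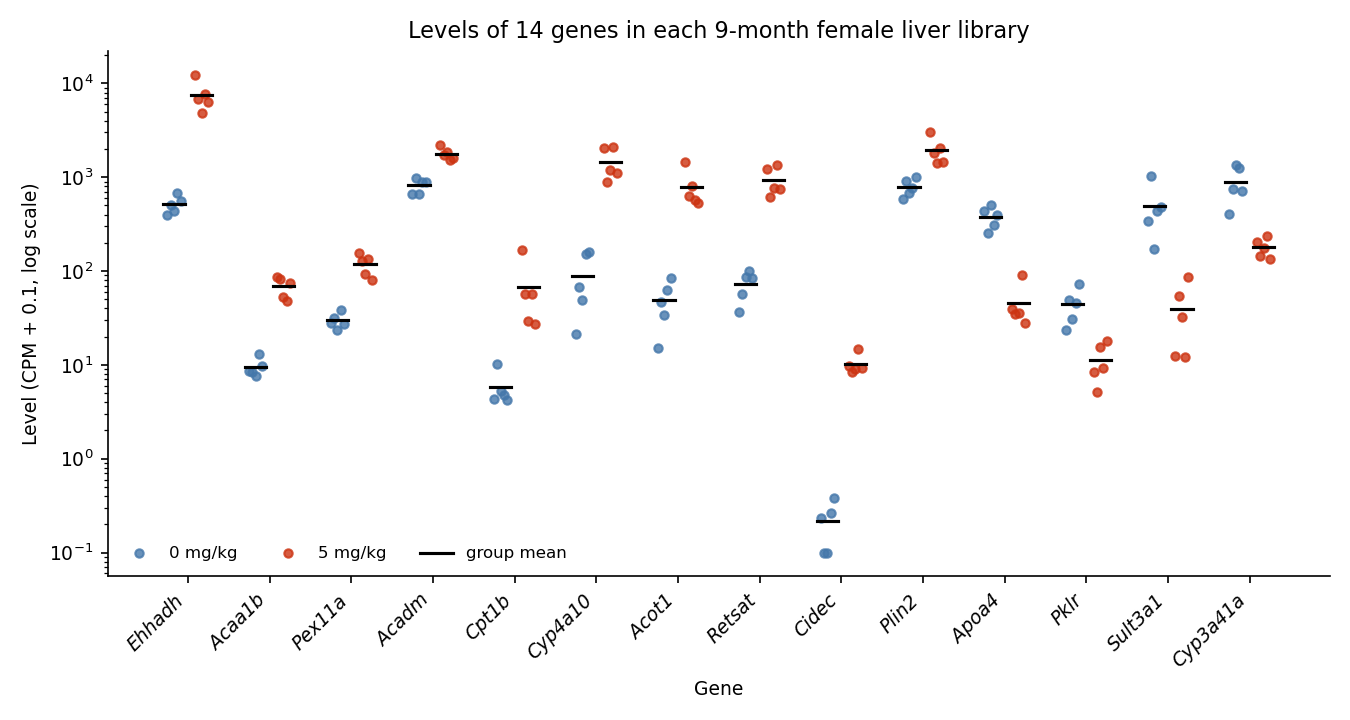
Level of 14 genes (CPM + 0.1, log scale) in each of the 10 libraries, in blue for 0 mg/kg and red for 5 mg/kg, with a black bar at the group mean. For all 14 genes the points of the 2 groups do not overlap; Ehhadh reaches 4880 to 12400 CPM at 5 mg/kg, and Apoa4 lies at 28.1 to 91.2 CPM.

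Proteins for fatty acid uptake, binding and storage had the largest number of rises. Of 29 tested genes 14 rose, 28 had a log2 change above 0 and the median was 1.02 (0 were lower at an unadjusted p under 0.05, and DESeq2 called 0 falls). Because several of these genes carry known PPARα sites, promoters were searched for the direct repeat of 2 AGGTCA half-sites with a spacer of 1 base. The search took in the RefSeq promoters of all genes (build GRCm38.p6), not only those of this list. It covered both strands, in the 250 bases before and 50 bases after the start. Promoters were in the table for 125 of the 160 rises, 66 of the 82 falls and 9107 of the genes tested. With up to 2 mismatches a match was found in 11 rises (8.8%) and 1 fall (1.52%), against 3.91% of the genes tested and 4.4% of all 27025 promoters. With any base at the fourth position of each half-site it was found in 1 rise (0.8%) and 0 falls, against 0.329% and 0.451%, and the exact repeat in 0 of both, against 0.0439% and 0.0481%. These counts are descriptions of letters and not of binding.

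The stretches below show where the matches lie in 6 of the risen genes that take up, store or burn fatty acids. Each is printed 5′ to 3′ on the strand of the gene, with the 13 matching bases in capitals, and ends at or before the transcription start; positions count back from the start. Fabp1 is shown in full because it had the closest match, with 1 mismatch; the other 5 have 2.
Fabp1: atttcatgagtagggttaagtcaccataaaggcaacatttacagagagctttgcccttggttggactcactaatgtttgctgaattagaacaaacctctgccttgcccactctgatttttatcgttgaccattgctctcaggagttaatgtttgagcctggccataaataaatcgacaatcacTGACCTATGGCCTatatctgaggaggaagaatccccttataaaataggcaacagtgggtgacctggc
Cd36: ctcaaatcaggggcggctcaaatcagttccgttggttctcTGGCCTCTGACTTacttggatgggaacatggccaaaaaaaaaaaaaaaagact
Plin2: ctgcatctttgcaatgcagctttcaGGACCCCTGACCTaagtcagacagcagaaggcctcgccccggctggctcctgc
Mogat1: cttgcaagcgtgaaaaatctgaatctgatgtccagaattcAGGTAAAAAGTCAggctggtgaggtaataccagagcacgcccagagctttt
Ucp3: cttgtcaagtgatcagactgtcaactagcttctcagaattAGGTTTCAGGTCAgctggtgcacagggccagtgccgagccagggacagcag
Etfa: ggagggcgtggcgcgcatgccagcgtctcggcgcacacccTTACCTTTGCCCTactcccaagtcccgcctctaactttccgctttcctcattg
The Fabp1 stretch is chr6:71199629-71199878 on the plus strand, with the match from position -67. Cd36 is chr5:17835907-17835999 (minus strand, -63), Plin2 chr4:86670232-86670309 (minus, -225) and Etfa chr9:55512268-55512360 (minus, -77). Mogat1 is chr1:78510969-78511059 and Ucp3 chr7:100472900-100472990, both on the plus strand with the match from -51. In Mogat1 and Ucp3 the repeat reads in the direction of the gene, and in the other 4 on the opposite strand.

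Fabp1, the main fatty acid binding protein of the hepatocyte, stood at 1580, 4880, 2160, 4120 and 5690 CPM in controls and at 14700, 9760, 10400, 8720 and 7270 CPM at 5 mg/kg. The groups did not overlap and it rose 2.76-fold (95% interval 1.80 to 4.23; adjusted p = 0.0101), but control replicates 1 and 3 had the 2 lowest values, and without them the adjusted p was 0.0915. Cd36, the fatty acid translocase of the cell surface, rose from 25.9 to 65.3 CPM to 82 to 241 CPM (3.34-fold, 95% interval 2.14 to 5.21; adjusted p = 0.0034; 0.0239 without those controls). The acyl-CoA synthetase and transporter Slc27a1 rose 6.04-fold, from 10.3, 15.2, 12.8, 19.5 and 21.5 CPM to 227, 36.9, 84, 69.3 and 61.9 CPM. In none of these 3 did the groups overlap. Slc27a4, Fabp2 and Fabp4 rose too, from 69.9 to 124 CPM, 502 to 1050 CPM and 16.6 to 43.1 CPM, and none of the 3 was called without control replicates 1 and 3. Fabp4 was lost in 5 and Slc27a4 in 3 of the 10 fits that left out 1 library.

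Lipid droplet genes rose over a wide range of size. Plin2, which coats droplets, went from 587, 906, 679, 774 and 1000 CPM to 3000, 1800, 1430, 2040 and 1470 CPM (2.47-fold, 95% interval 1.91 to 3.20; adjusted p = 8.55e-05). Cidec, a droplet fusion protein typical of fat tissue, was near 0 in controls, from 0.0 to 0.285 CPM, and at 9.60, 8.36, 8.91, 14.7 and 9.11 CPM at 5 mg/kg (log2 change 6.21 ± 1.03 SE, adjusted p = 0.000641). The adipocyte markers Adipoq, Plin1, Cfd, Lep and Retn, as a sum, did not exceed 1.89 CPM in any of the 10 libraries. None of them passed the low-count filter, and Cfd and Lep had 0 counts in all 10. Whether these probes would read fat cells in this tissue was not tested. Fitm1 and Fitm2, which package triglyceride, rose from 4.34 to 31.1 CPM and from 17.6 to 40.2 CPM, and Mgll, which cleaves monoglycerides, from 107 to 216 CPM. Mogat1, which starts triglyceride synthesis from monoglycerides, was read in 1 control, at 0.427 CPM, and in all treated libraries, at 1.06 to 12.4 CPM. Its call was lost without control replicate 1 and without control replicate 3. Vnn1, a pantetheinase and PPARα target, went from 0.928 ± 0.598 to 9.32 ± 4.47 CPM and was lost in 7 of the 10 fits that left out 1 library. Retsat, a retinol saturase, had the second smallest adjusted p of the comparison, 2.96e-11: it stood at 36.1, 56.6, 86.4, 99.3 and 84.6 CPM in controls and 1210, 622, 768, 1340 and 755 CPM at 5 mg/kg. Of the 14, 5 remained called without control replicates 1 and 3 (Cd36, Slc27a1, Plin2, Cidec and Retsat), although the median of the list stayed at 1.02.

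Fatty acid and triglyceride synthesis runs opposite to oxidation. Of its 23 tested genes, 3 rose and none fell (at an unadjusted p under 0.05, 1 was lower, and DESeq2 called 0 falls). Me1, malic enzyme, a source of NADPH, rose from 118 ± 26.5 to 317 ± 74.6 CPM (adjusted p = 1.79e-05). Scd1, the desaturase, went from 136 ± 43.5 to 529 ± 334 CPM, with 5 mg/kg replicate 4 at 1100 CPM, and the elongase Elovl5 from 248 ± 91.5 to 558 ± 340 CPM, in groups that overlapped. Scd1 was lost without control replicate 1, Elovl5 in 4 of the 10 fits that left out 1 library, and both without control replicates 1 and 3 (adjusted p = 0.147 and 0.084). Acly, which supplies acetyl-CoA for synthesis, was at 174 ± 48.1 and 114 ± 18.9 CPM (adjusted p = 0.0939).

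Of 18 tested genes of glucose and glycogen metabolism, 2 fell and 0 rose (0 higher at an unadjusted p under 0.05, and 0 rises by DESeq2). Pklr, liver pyruvate kinase and a target of carbohydrate signalling, stood at 23.5, 48.8, 31, 45.9 and 72.8 CPM in controls and 8.35, 5.01, 15.6, 9.16 and 18.0 CPM at 5 mg/kg. It fell 3.97-fold (95% interval 2.53 to 6.23; adjusted p = 0.00066), without overlap, and by 2.32 on the log2 scale without control replicates 1 and 3. Tkfc, triokinase of the fructose route, fell from 230 ± 74.8 to 136 ± 19.8 CPM; it was lost in 5 of the 10 fits that left out 1 library and had an adjusted p of 0.000583 without control replicates 1 and 3. Among 21 tested genes of lipoproteins, Apoa4, an apolipoprotein of triglyceride-rich particles, fell 8.30-fold (95% interval 4.50 to 15.3; adjusted p = 0.000361). Its controls were at 436, 257, 505, 307 and 393 CPM, and its treated libraries at 38.9, 35.1, 35.5, 91.2 and 28.1 CPM. Abcg5, a sterol exporter and the only rise of that list, went from 17.6 to 35.9 CPM and was lost in 7 of the 10 fits that left out 1 library and without control replicates 1 and 3 (adjusted p = 0.17).

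The liver breaks down amino acids and turns their nitrogen into urea. Of 29 tested genes of these routes 6 fell, 24 had a log2 change below 0 (median -0.32), and at an unadjusted p under 0.05, 12 were lower and 0 higher (DESeq2 called 6 falls and 0 rises). Ass1, which joins citrulline and aspartate, stood at 4990, 4800, 6150, 7270 and 5760 CPM in controls and 2010, 2400, 4840, 4370 and 2890 CPM at 5 mg/kg. The groups overlapped by 1 library, and the fall was 1.75-fold (95% interval 1.32 to 2.33; adjusted p = 0.0349). Asl, the next step, fell from 725 ± 153 to 438 ± 127 CPM, and Slc25a15, the ornithine carrier, from 258 ± 49.5 to 157 ± 33 CPM, both without overlap. The others were Prodh (proline oxidation), Got1 (aspartate transamination) and Gnmt (glycine methylation). Got1 was the one of the 6 that stayed called in each of the 10 fits that left out 1 library, and Gnmt the one that stayed called without control replicates 1 and 3 (adjusted p = 0.0214). Over the 10 fits, Ass1 and Prodh were lost in 6 each, Gnmt in 7, Asl in 4 and Slc25a15 in 2.

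Of the 25 tested genes known to be higher in female than in male mouse liver, 9 fell and 1 rose (median -1.13). Sult3a1, a sulfotransferase, fell 12.4-fold, from 338, 1030, 171, 433 and 480 CPM to 12.4, 54.4, 32.6, 12.1 and 85.9 CPM (adjusted p = 0.0255), but was lost in 5 of the 10 fits that left out 1 library. Cyp3a41a stood at 401 to 1340 CPM in controls and 135 to 234 CPM at 5 mg/kg (4.96-fold lower, adjusted p = 0.00117), and Cyp3a41b fell from 1030 to 296 CPM, with the 2 near-identical genes not separable for certain. Cyp2c69 (13.3 to 0.777 CPM) and Sult2a2 (213 to 66.1 CPM) fell without overlap. Cyp3a44, Sult2a1 and Sult2a5 were lost in 9, 9 and 5 of the 10 fits that left out 1 library, and the first 2 also without control replicates 1 and 3 (adjusted p = 0.172 and 0.104).

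The exception in this list was Sult2a7, a hydroxysteroid sulfotransferase. It stood at 5.70, 26.5, 7.96, 39 and 17.1 CPM in controls and at 281, 1050, 413, 70.1 and 1540 CPM at 5 mg/kg, a 35-fold rise (95% interval 7.43 to 165; adjusted p = 0.0201). The treated values spread over more than 20 times, and the call was lost when control replicate 1, control replicate 3 or both were left out (adjusted p = 0.174). Probes of the Sult2a family may take each other's transcripts. Of 15 tested male-biased genes 2 rose. Cyp4a12a, an arachidonic acid hydroxylase, went from 1.33, 4.23, 3.08, 2.26 and 2.28 CPM to 37.8, 8.36, 23.1, 81.2 and 8.93 CPM (12.1-fold, adjusted p = 5.69e-05), and Elovl3, an elongase, from 13.9 to 28 CPM to 35 to 142 CPM (4.48-fold, adjusted p = 0.000887).

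A further pair of lists was taken from other libraries, the 18-month controls, by comparing females with males there (adjusted p under 0.05 and at least 2-fold; 1 female library with a low total left out). Of 47 genes higher in those females, all 47 were tested at 9 months, 6 fell and 0 rose, with a median of -0.18 and 29 below 0. Among the 6 were Sult3a1, Cyp2c69, Cyp3a44, Sult2a5 and Lect2, a secreted hepatokine that went from 467 ± 106 to 217 ± 137 CPM. Lect2 was lost in 6 of the 10 fits that left out 1 library and without control replicates 1 and 3 (adjusted p = 0.0589). Of 19 genes higher in those males, 14 were tested, and Cyp4a12a rose while Sf3a3 fell (median 0.34). In the 9-month controls Sf3a3 was not higher in males, at 42.2 ± 13.1 CPM against 55.2 ± 2.58 CPM in females. In both lists most genes were not called. Without control replicates 1 and 3, 5 of 46 fell in the first list, and the second had again 1 rise and 1 fall.

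The largest changes also fell on genes outside the lists, most of them at low levels. Sptlc3, a subunit of the enzyme that starts sphingolipid synthesis, was at 0.0 to 0.265 CPM in controls and at 26.8, 5.66, 2.11, 29.7 and 24.4 CPM at 5 mg/kg (log2 change 7.37 ± 1.20 SE, adjusted p = 0.000367). Fbp2, the muscle form of fructose bisphosphatase, had 0.133 CPM in control 1 and 0 in the other 4, and 29.8, 3.99, 5.74, 6.37 and 3.72 CPM at 5 mg/kg. Aqp3, a water and glycerol channel, rose from at most 0.314 CPM to 53.9, 8.10, 6.65, 15.9 and 7.44 CPM. All 3 remained called without control replicates 1 and 3. So did Cxcr1, a chemokine receptor (0.0 to 0.427 CPM in controls; 32.6, 2.83, 10.7, 23.5 and 1.12 CPM at 5 mg/kg), and the melatonin receptor Mtnr1a (0.092 to 7.74 CPM on average). The GABA receptor subunit Gabrg1 (0.0314 to 5.52 CPM) and Ttll11 (0.559 to 10.7 CPM) were no longer called then (adjusted p = 0.104 and 0.124).

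Several rises not named by the rule had groups that did not overlap and are given as chosen after their values were seen. Ddhd2, a triglyceride lipase, went from 124 to 296 CPM (log2 change 1.26 ± 0.14 SE, adjusted p = 1.22e-06). Serinc2 stood at 12.5 to 19.3 CPM in controls and 57.3 to 141 CPM at 5 mg/kg, and Adam11 at 3.54 to 22.3 CPM and 85.6 to 173 CPM. Hsd17b11, a droplet-associated dehydrogenase, rose from 213 to 1070 CPM, and Ephx2, soluble epoxide hydrolase, from 1020 to 2700 CPM.

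Among the falls, Irx1 and Lrtm1 went to near 0. The transcription factor Irx1 stood at 7.03, 5.96, 6.17, 0.161 and 13.5 CPM in controls and had 0.129 CPM in 1 treated library and 0 in the other 4 (log2 change -7.03 ± 0.94 SE, adjusted p = 2.96e-05). Lrtm1 went from a mean of 8.54 CPM to 0.0257 CPM, with 1 control at 0. Dll1, a Notch ligand, fell from 4.51 to 6.61 CPM to at most 1.36 CPM (adjusted p = 0.00354). These 3 remained called without control replicates 1 and 3. In contrast Gdpd2, Rhd, Ank1, Igkv1-135, Snx22 and F2rl3 were among the 12 largest falls but had their 2 highest levels in those controls: Gdpd2, for example, was at 22.9, 0.0, 20.3, 1.13 and 0.142 CPM in controls and 0 in all treated libraries, at least 18.0-fold lower against the floor, and Rhd, the red blood cell antigen gene, at 30.8 and 16.1 CPM in controls 1 and 3 and at most 0.186 CPM in the other 8 libraries. Without those 2 libraries Igkv1-135 and F2rl3 were not called (adjusted p = 0.564 and 0.225) and the other 4 were not tested.

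The nocturnin gene Noct, which encodes a circadian deadenylase-like phosphatase, fell from 78.8 ± 17.9 to 19.9 ± 9.49 CPM (adjusted p = 0.00134). Sf3a3, a splicing factor, and Nucks1, a chromatin protein, also fell, from 55.2 ± 2.58 to 15.6 ± 5.46 CPM and from 174 ± 16.4 to 57.6 ± 44.7 CPM. Nucks1 was lost in 5 of the 10 fits that left out 1 library and without control replicates 1 and 3 (adjusted p = 0.106). The levels of both in the other groups, looked at after the values were seen, are given beside them. Sf3a3 lay between 18.0 and 25.7 CPM in untreated 18-month females, between 4.04 and 8.88 CPM in 9-month males at 0.1 mg/kg and between 43.5 and 49.4 CPM in 9-month males at 5 mg/kg. Nucks1 was at 26.5, 40.1, 40.3, 44.2 and 137 CPM at 5 mg/kg, with replicate 5 apart from the other 4, and at 47.6 to 156 CPM at 0.5 mg/kg. Gabpb2, which fell from 73.8 ± 11.2 to 33.3 ± 8.93 CPM, was at 28.6 ± 8.64 CPM at 0.1 mg/kg already and at 26 ± 3.57 CPM in untreated 18-month females. Its 2 probes differed, with log2 changes of -0.10 (adjusted p = 0.944) and -2.21 (adjusted p = 0.0138) at 5 mg/kg, and the gene was not called without control replicates 1 and 3 (adjusted p = 0.0547). The labels give no plate, run or date that these steps could be set against.

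Markers of other cell types held few calls. Of 15 tested stellate cell and matrix genes 1 rose, the basement membrane collagen Col4a1, from 33.8 ± 11.4 to 78.3 ± 25.8 CPM (adjusted p = 0.0018). Of 4 tested cholangiocyte genes 1 rose, Spp1 (osteopontin), from 17.2 ± 7.65 to 44.4 ± 13.8 CPM (adjusted p = 0.00746), which was not called without control replicates 1 and 3. The summed cholangiocyte list was at 11.7 to 30.1 CPM in controls and 42.3 to 91.8 CPM at 5 mg/kg. Lymphocyte and plasma cell markers had a median log2 change of -2.84 over 12 genes with no gene called (8 lower at an unadjusted p under 0.05, 4 falls by DESeq2), and 0.34 over 11 genes without control replicates 1 and 3.

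In 13 of the 31 pathway lists no gene was called. They were cholesterol, bile acid and AhR genes, ER stress, p53 targets, cell cycle, acute phase, coagulation, growth hormone, nuclear receptors, clock, periportal and fetal genes. Of their 215 tested genes, 7 were higher and 18 lower at an unadjusted p under 0.05, and DESeq2 called 3 rises and 2 falls. Ppara itself was at 151 ± 64.7 CPM in controls and 174 ± 21.4 CPM at 5 mg/kg (log2 change 0.20 ± 0.33 SE, adjusted p = 0.884). Cyp7a1, the rate-limiting enzyme of bile acid synthesis, was at 229 ± 143 and 113 ± 44.9 CPM, and Cyp1a2, the AhR marker, at 85.4 ± 34.5 and 93.7 ± 74.4 CPM. Ccnd1, cyclin D1, was at 41 ± 14.1 and 35.2 ± 14.4 CPM. Fgf21, a PPARα-driven hepatokine outside these 13 lists, was at 2.65 ± 1.65 and 5.88 ± 4.40 CPM (adjusted p = 0.493). Its 2 probes differed, with log2 changes of 0.139 (adjusted p = 0.98) and 2.37 (adjusted p = 0.259). The cell cycle list had a median of -1.13, and of 0.61 without control replicates 1 and 3.

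The CAR and PXR, antioxidant and pericentral lists held 1, 2 and 1 calls. Of 16 tested CAR and PXR targets, the retinal dehydrogenase Aldh1a1 rose from 7.49 ± 4.24 to 28.3 ± 6.78 CPM (adjusted p = 0.00137; 0.0381 without control replicates 1 and 3). The classical CAR marker Cyp2b10 was at 122 ± 104 and 90.7 ± 57 CPM, and the PXR marker Cyp3a11 at 188 ± 124 and 422 ± 193 CPM (adjusted p = 0.354). Among 21 antioxidant genes Ephx1, microsomal epoxide hydrolase, rose from 258, 355, 386, 305 and 230 CPM to 796, 462, 486, 1580 and 486 CPM (adjusted p = 0.0191; 0.106 without those controls), and was lost without control replicate 1 or 5. Gstm2 fell from 116 ± 45.9 to 39.6 ± 10.9 CPM (adjusted p = 5.93e-05) and stayed called without them. Slc1a2, a glutamate transporter of pericentral hepatocytes, fell from 193 ± 72.2 to 82.6 ± 14.8 CPM and was lost in 8 of the 10 fits that left out 1 library.

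The lower doses ask how far down the response reached. They share their controls with the 5 mg/kg group, so their values are set side by side only. At 0.5 mg/kg 1 gene rose (0.00859% of those tested) and 0 fell (0.0%), with 1054 genes at an unadjusted p under 0.05 and 14 rises and 82 falls by DESeq2. The 1 rise was Retsat, at 187 ± 29.3 CPM (log2 change 1.36 ± 0.22 SE, adjusted p = 0.0168). At 0.1 mg/kg 0 rose (0.0%) and 1 fell (0.00859%), Gabpb2, with 922 genes at an unadjusted p under 0.05 and 9 rises and 42 falls by DESeq2. At 0.05 mg/kg 0 rose and 0 fell (0.0% each), with 248 at an unadjusted p under 0.05 and 0 calls by DESeq2. Leaving out 1 library ended the call of Retsat in 3 and of Gabpb2 in 8 of 10 fits. Without control replicates 1 and 3 neither Retsat at 0.5 mg/kg nor Gabpb2 at 0.1 mg/kg was called.

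Mean levels of Ehhadh in rising order of dose were 514, 752, 687, 897 and 7610 CPM. Those of Retsat were 72.6, 129, 137, 187 and 938 CPM, and those of Acot1 48.6, 67.7, 91, 146 and 796 CPM. For all 3 the step from 0.5 to 5 mg/kg was the largest. Cpt1b, Pdk4 and Cidec had means of 5.6, 0.651 and 0.0937 CPM at 0.5 mg/kg, against 5.65, 0.759 and 0.116 CPM in controls. Pklr was at 45.5 ± 13.7 CPM at 0.5 mg/kg.

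**Figure D4:**
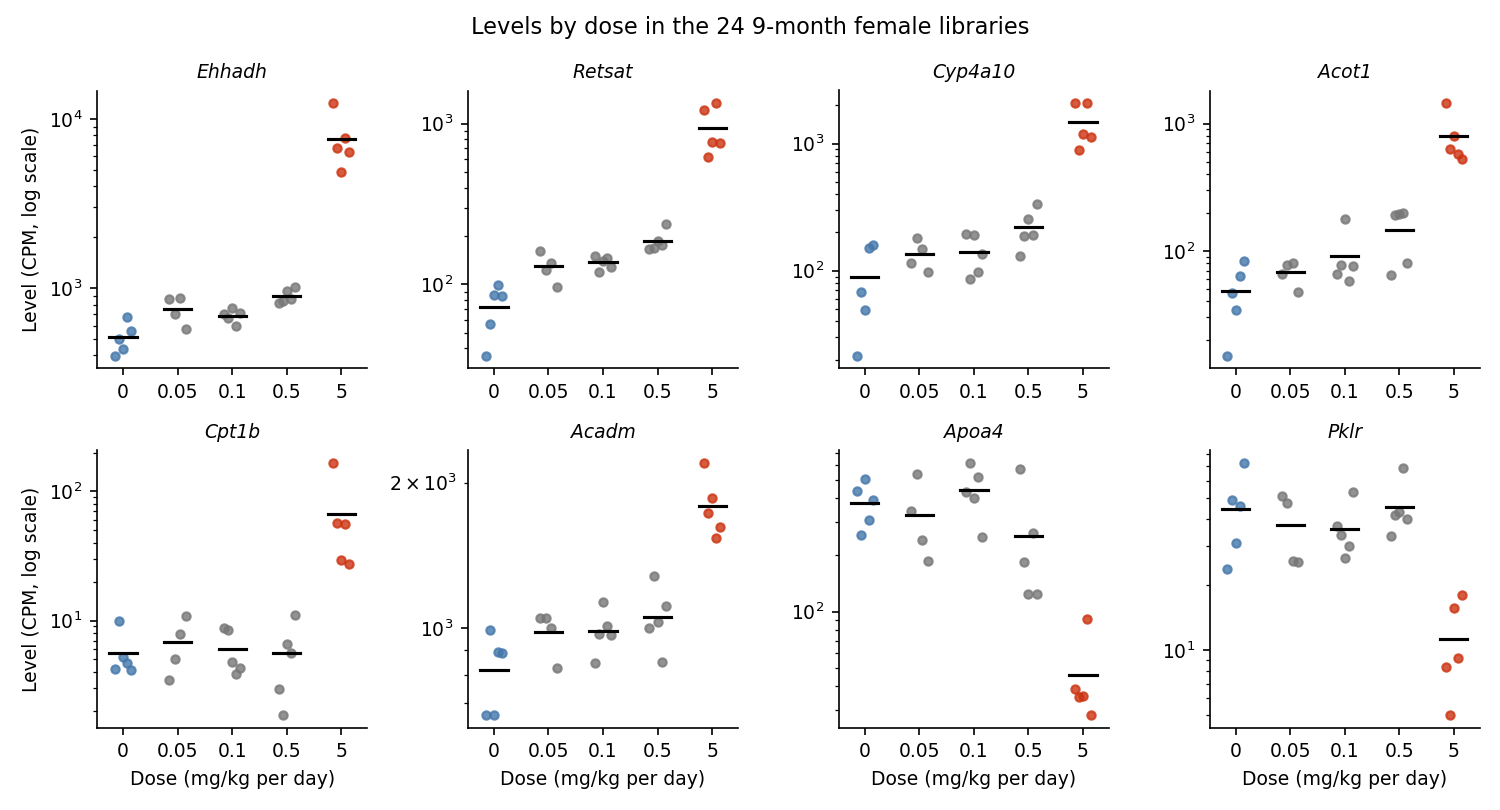
Level of 8 genes (CPM, log scale) in each 9-month female library by daily dose in mg/kg; blue points are controls, grey the doses of 0.05 to 0.5 mg/kg, red 5 mg/kg, and bars group means. Ehhadh has group means of 897 CPM at 0.5 mg/kg and 7610 CPM at 5 mg/kg, and the Apoa4 means are 254 and 45.7 CPM.

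The step between the 2 highest doses was tested directly, as a contrast without the control group in the same fit of 24 libraries. From 0.5 to 5 mg/kg 71 genes rose (0.61% of those tested) and 43 fell (0.369%). Ehhadh rose by 3.09 ± 0.21 (SE) on the log2 scale (adjusted p = 5.28e-11), Retsat by 2.33 ± 0.23 (2.53e-07), Cyp4a10 by 2.75 ± 0.45 (0.00316) and Cpt1b by 3.57 ± 0.51 (0.00044). Apoa4 fell by 2.47 on that scale (adjusted p = 0.00624) and Irx1 by 6.91 (0.000134). These 6 genes differed from 0.5 mg/kg in the same direction as from the controls, but both comparisons share the 5 mg/kg libraries and are not independent. Acaa1a, Plin2, Fabp1 and Cd36 did not pass the test between these doses (adjusted p = 0.103, 0.0663, 0.204 and 0.122); the last 3 had mean levels of 1200, 5350 and 70 CPM at 0.5 mg/kg.

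Whether females responded as males did was tested as a difference of log2 changes at 9 months in a fit of all 92 libraries. Of 13681 genes, 15 had a higher change in females (0.11%) and 20 a lower one (0.146%). Elovl3 went opposite ways in the sexes. Male controls stood at 155, 147, 1610 and 896 CPM and treated males at 5.46 to 92.1 CPM, while females reached 88.4 ± 39.9 CPM (difference 5.75 ± 1.15 SE, adjusted p = 0.00581). In this fit of all libraries the rise in females alone had an adjusted p of 0.162. Zkscan7, a zinc finger gene, was at 80.2 to 1470 CPM in control males and 48.4 to 237 CPM in treated ones, and had means of 40.4 and 87.9 CPM in females (difference 3.45 ± 0.72 SE). Its change in females alone had an adjusted p of 0.268 in this fit. Leaving out male control replicate 4, which had the 1470 CPM, took the difference to 2.06 (adjusted p = 0.177).

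Cd36, Fabp4 and Ccnd1 had a larger change in males. Cd36 stood at 4.27 to 9.10 CPM in control males and 78 to 348 CPM in treated ones, against 45.2 and 151 CPM on average in females (difference -3.05 ± 0.62 SE, adjusted p = 0.00704). Fabp4, a binding protein of fat cells and macrophages, reached 202 to 2440 CPM in treated males and 43.1 ± 15 CPM in treated females (difference -4.83 ± 0.995 SE). Ccnd1 was at 2.13 CPM on average in control males, with a highest value of 4.16 CPM, and 23.8 to 55.8 CPM in treated males, and had no call in females (difference -4.41 ± 0.88 SE, adjusted p = 0.00581). The adipocyte markers summed to 0 CPM in the 4 male controls and at most 1.56 CPM in treated males, and macrophage markers to 350 to 456 CPM and 347 to 784 CPM. Cyp7b1, a male-biased oxysterol hydroxylase, went from 104 to 9.22 CPM in males and from 6.98 to 8.28 CPM in females (difference 3.76 ± 0.92 SE, adjusted p = 0.0413), and its difference was lost in 12 of the 19 fits that left out 1 library. Without control replicates 1 and 3 of the females, 4 genes were higher and 6 lower; Cd36, Fabp4, Ccnd1 and Dpy19l3 remained called, and Elovl3, Zkscan7 and Cyp7b1 did not (adjusted p = 0.0729, 0.0747 and 0.168).

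**Figure D5:**
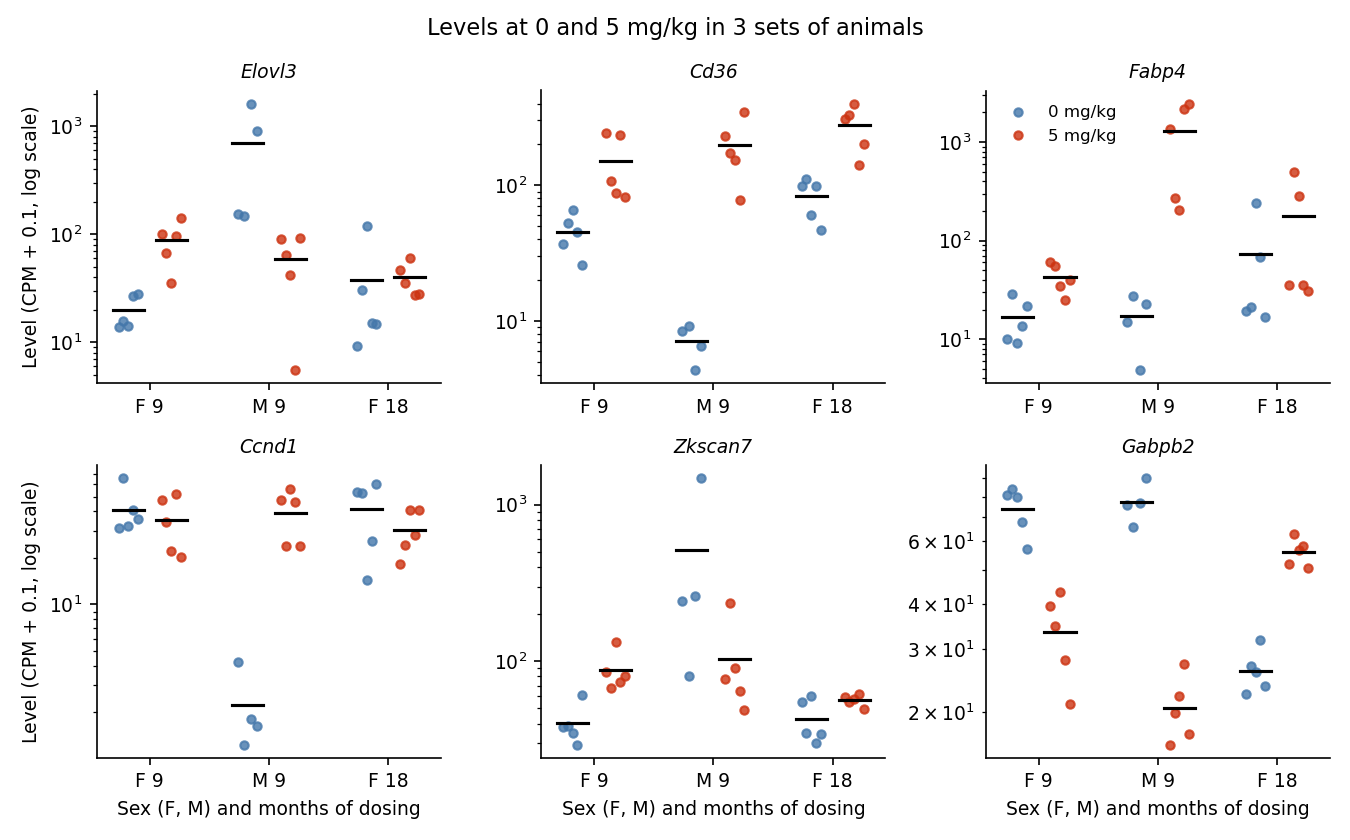
Level of 6 genes (CPM + 0.1, log scale) at 0 mg/kg (blue) and 5 mg/kg (red) in 9-month females (F 9), 9-month males (M 9) and 18-month females (F 18), with bars at group means. Elovl3 is at 35 to 142 CPM in treated 9-month females and at 5.46 to 92.1 CPM in treated males; Cd36 and Ccnd1 start lower in males.

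The same difference between 9 and 18 months in females gave 35 genes with a higher change at 9 months (0.256%) and 2 with a lower one (0.0146%). In 35 of these 37 genes the 18-month control library with the low total was the highest of its group, and without it 2 genes were called, Gabpb2 (-2.25 ± 0.32 SE, adjusted p = 1.22e-05) and Drosha (2.87 ± 0.53 SE, adjusted p = 0.00444). The difference in Cd36 between durations was 0.03 ± 0.57 (SE) and was not called. Apart from the low-total library, the 18-month libraries at 0 and 5 mg/kg held 9948220 to 17245725 counts, against 4723672 to 6635184 at 9 months. Age, duration and library total go together in this comparison and cannot be told apart.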

How the data were processed

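The authors deposited 1 table of raw TempO-Seq counts, with 30146 probe rows and 1 column per liver library. The values are whole-number counts per probe and are not normalised. Per the submitters' processing notes, bcl2fastq 2.17.1.14 and Bowtie were used; the Bowtie version, the genome build and the probe manifest are not given in the sources used here. Probe rows were summed by symbol to 21400 genes, and the probes of near-identical genes may share transcripts. Columns were matched to libraries by the animal number in the labels, and 0 columns were left unmatched. Replicate numbers follow accession order and only name a library.

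Genes were kept with filterByExpr, scaled with TMM and tested with edgeR 4.0.16 (R 4.3.3, robust quasi-likelihood F test, Benjamini-Hochberg threshold 0.05) in 1 fit of the 24 female libraries at 9 months. Contrasts between sexes and durations used a fit of all 92. The SE was taken as the log2 change over the root of its F statistic, and the 95% interval of a fold follows from it. CPM values use TMM over all 92 libraries. The 24 libraries held 4705124 to 7164241 counts, and 1 control female at 18 months held 403108. Replicate spread limits the precision more than counting does, with a common coefficient of variation of 0.476. DESeq2 1.42.0, other filters, scalings, sample sets and each library left out were tried as alternatives. Tables and plots were made with Python 3.11.15, pandas 2.3.3, numpy 2.4.6 and matplotlib 3.10.9.

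Genes are named by rule: the 12 largest called rises and falls with a group mean of 10 raw counts or more, the called members of each list with up to 3 others of smallest adjusted p, 20 PPARα and marker genes, and the 6 largest of each interaction and of 5 against 0.5 mg/kg; not all are printed, and some are not reported here. The samples, gene lists and rule were chosen with earlier results of these data known.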

Additional observations from a re-analysis of the deposited data

Results flagged for a closer look

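Single libraries lay far from the other 4 of their group in several genes, by a gap test of CPM values at the 95% level. In normally distributed values it flags about 1 in 20 groups by chance, a rate that need not hold for CPM. A group with a single nonzero value is always flagged, as for Irx1 and the Fbp2 controls. At 5 mg/kg, replicate 1 had the highest Cpt1b (167 CPM), Slc27a1 (227 CPM) and Fbp2 (29.8 CPM). Replicate 4 had the highest Cidec (14.7 CPM), Apoa4 (91.2 CPM), macrophage marker sum (2250 CPM) and cell cycle sum (490 CPM). The single nonzero value of Irx1 was that of replicate 2 (0.129 CPM). Among controls, replicate 2 had the highest Cpt1b (10.0 CPM), replicate 1 the single nonzero Fbp2 (0.133 CPM) and replicate 3 the highest neutrophil marker sum (415 CPM).

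The response to 5 mg/kg at 9 months differed between females and males by the interaction test in 35 genes, and 7 of these are given here. As female minus male log2 change, it was lower in Fabp4 (-4.83), Ccnd1 (-4.41) and Cd36 (-3.05). It was higher in Elovl3 (5.75), Cyp7b1 (3.76), Dpy19l3 (3.74) and Zkscan7 (3.45). Dpy19l3, a C-mannosyltransferase, stood at 5.55 and 16.1 CPM on average in females at 0 and 5 mg/kg and at 41.6 and 9.10 CPM in males. Between 9 and 18 months in females, Gabpb2 differed by -2.25.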

How the results depend on the processing

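Against 160 rises and 82 falls at 5 mg/kg, there were 149 and 54 with no low-count filter, 106 and 30 from the 2 groups alone, 282 and 176 with DESeq2, 111 and 53 from all 92 libraries, and 83 and 25 at an adjusted p under 0.01. Without control replicates 1 and 3, an alternative chosen after seeing the data, there were 74 and 36. Leaving out 1 library gave 102 to 154 rises and 34 to 86 falls: 102 and 55 without control 1, 109 and 36 without control 3, 107 and 34 without 5 mg/kg replicate 1, and 41 and 52 falls without its replicates 2 and 5. Of 112 called genes named under the rule or afterwards, 49 stayed called in every alternative, 63 were lost in at least 1 and 0 reversed.

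At 0.5 mg/kg, against 1 rise and 0 falls, there were 2 falls with no filter, 0 rises from 2 groups or without controls 1 and 3, and 14 rises and 82 falls with DESeq2; leaving out 1 library gave 0 to 2 and 0 to 1. At 0.1 mg/kg, against 0 and 1, there was 1 rise from 2 groups, 9 rises and 42 falls with DESeq2, 0 falls without controls 1 and 3, and 0 to 1 falls leaving out 1 library. From 0.5 to 5 mg/kg, against 71 and 43, there were 26 falls from 2 groups, 140 and 99 calls with DESeq2, and 43 to 73 rises and 17 to 48 falls leaving out 1 library.

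Between sexes, against 15 higher and 20 lower, there were 29 and 35 from the 4 groups alone, 144 and 327 with DESeq2, 4 and 6 without controls 1 and 3, and 6 to 24 and 12 to 33 leaving out 1 library. Between durations, against 35 and 2, there were 71 and 6 with RLE, 0 and 1 from 4 groups, 1 and 4 with DESeq2, 1 and 1 without the low-total library, 4 and 1 without controls 1 and 3, and 1 to 191 and 1 to 16 leaving out 1 library. The sex-biased lists of the 18-month controls, 47 and 19 genes, held 26 and 10 with the low-total library, 295 and 98 with DESeq2, and 17 to 222 and 7 to 93 leaving out 1 library. The promoter repeat was in 0 rises exactly, in 1 with any base in place of the T of each half-site and in 11 with up to 2 mismatches.

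The direction turned for genes that were not called: Ppara was at -0.0912 without controls 1 and 3. Leaving out 1 library, Cyp2b10 ranged from -0.694 to 0.0333 (control 4), Cyp1a2 from -0.452 (5 mg/kg replicate 4) to 0.361, below 0 also without control 1, and Ccnd1 from -0.396 to 0.0133 (control 2). The cause of these shifts was not tested. No paired analysis was possible because the labels give animal numbers that no other group shares. With 5 libraries in each group, small changes and changes in low genes were often not detectable.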

Other observations

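Some changes outside the gene lists are given as values, chosen after they were seen. Cyp2c67, a cytochrome P450 of the Cyp2c family, fell from 35.5 to 3.52 CPM on average (log2 change -3.34, adjusted p = 0.00916 by edgeR). Sybu was at 5.55 to 17.9 CPM in female controls and 5.53 to 8.61 CPM at 5 mg/kg, at 0 in all 4 male controls and at 0.346 to 11 CPM in the treated males. Shh was at 3.08 to 8.19 CPM in male controls and at 0 in all 5 treated males, against 1.61 to 5.64 CPM and at most 3.73 CPM in females. Each of these genes had a male group at 0, so the size of its difference between the sexes is not well determined. By the interaction test the female minus male difference was -9.12 (adjusted p = 0.00886) for Sybu and 7.84 (adjusted p = 0.0217) for Shh. Without control replicates 1 and 3 of the females, the adjusted p of that test was 0.0331 for Sybu and 0.0859 for Shh.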
